A study of Danio rerio with 63 samples.

Results

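Uninjected zebrafish (Danio rerio) explants were compared between 30% epiboly, at about 4.7 hours post fertilization (hpf), and 50% epiboly, at about 5.3 hpf. The comparison took every library labelled uninjected at those stages, 3 per stage (replicates A, B and C), which made 6 of the 63 libraries of the series. An explant here is tissue cut from the embryo at roughly 3 hours and kept in explant medium until collection, so that it develops without the yolk and without the rest of the embryo. Uninjected explants received no mRNA. The series also holds explants of embryos that had received, as 1 cell, an injection of ndr2 mRNA (10 pg, for a Nodal ligand) or of CA-acvr1b* mRNA (0.5 pg, for a Nodal receptor that signals without ligand), and all 3 conditions were sampled at 7 stages with 3 libraries each. The labels name no strain and do not say how many explants went into a library.

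The interval falls soon after the zygotic genome takes over. In the zebrafish blastula, mRNAs loaded by the mother are cleared while the first zygotic genes are transcribed, with Nanog, Pou5f3 and SoxB1 proteins among the factors that open the genome. The outermost cells form the enveloping layer, a keratin-rich epithelium that covers the embryo during epiboly. Cells below it are allotted to ventral ectoderm under BMP signals, to neural ectoderm where BMP is blocked, and to mesoderm and endoderm where Nodal is active. Explants without added Nodal are used as naive controls that form little mesendoderm.

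The 6 libraries held between 14832699 and 19650245 counts. Their most distinct member was replicate A at 50% epiboly. It had the largest total of the 6 but the fewest genes with a count, 15746 against 18700 to 19619 in the others. Whether this low number of genes shaped the values of that library was not tested. Its log2 CPM (counts relative to a common library size, with TMM factors) had a Pearson correlation across genes of 0.938 with replicate B and 0.927 with replicate C of its own stage, against 0.969 between B and C. To place each library in time, its log2 CPM profile was projected on the line from the mean of the uninjected sphere libraries (about 4 hpf, position 0) to the mean of the uninjected shield libraries (about 6 hpf, position 1). Replicates A, B and C lay at 0.476, 0.357 and 0.246 at 30% epiboly and at 0.874, 0.686 and 0.605 at 50% epiboly. The groups did not overlap, and A was the most advanced and C the least advanced library at both stages. The position thus went from 0.360 ± 0.115 to 0.722 ± 0.138 (SD, n = 3 each). A two-sided exact permutation test gave p = 0.1, the smallest value that 3 against 3 libraries allow. Along each letter the gain was 0.398, 0.328 and 0.360, a narrower range than that of the positions themselves. It was 0.355, 0.329 and 0.311 in ndr2 explants and 0.409, 0.426 and 0.393 in CA-acvr1b* explants.

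**Figure D1:**
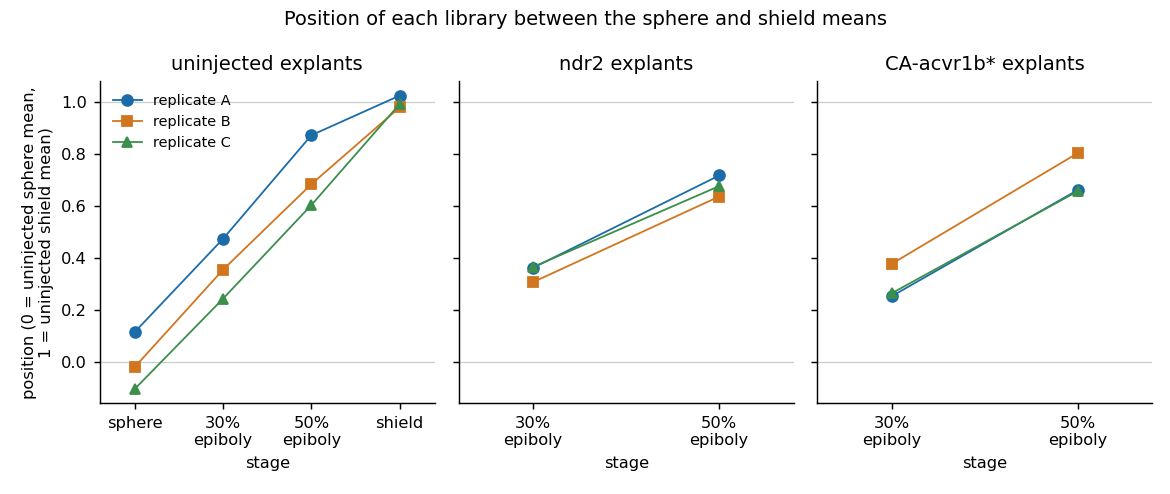
Position of each library (vertical axis, no unit) by stage (horizontal axis) in uninjected, ndr2 and CA-acvr1b* explants, with 1 line per lettered replicate. In uninjected explants replicate A lay ahead of B, and B ahead of C, at 30% epiboly (0.476, 0.357 and 0.246) and at 50% epiboly (0.874, 0.686 and 0.605), and the lines ran nearly parallel. The uninjected sphere and shield libraries surround 0 and 1 because their means define the scale.

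A broad change of the transcriptome was called between stages that lie nominally 0.6 hours apart. Of 19069 genes tested, 2380 rose (12.5%) and 2361 fell (12.4%) from 30% to 50% epiboly, 4741 in all (24.9%), by edgeR's quasi-likelihood test at an adjusted p under 0.05. At least 2-fold changes were seen for 1169 rises and 1149 falls, and at least 4-fold changes for 489 rises and 176 falls. Among called genes, the libraries of the 2 stages did not overlap for 1889 rises and 2082 falls, against 14.2% and 20% of all genes tested in the same 2 directions. Within the letters, 2253 of the 2380 rises were higher at 50% epiboly in all 3 pairs, and 2342 of the 2361 falls were lower in all 3. The overlap and pair counts come from the libraries that made the calls, so they are no separate support. With no count in any 30% library were 55 of the rises, and 47 of the falls had none in any 50% library.

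The count of calls depended on single libraries and on the model. It fell to 2348 without replicate A at 50% epiboly, where 20 of the 4741 genes also changed sign, and to 2590 without replicate C at 30% epiboly, and 1022 of the rises and 838 of the falls were called in each of the 6 fits that left out 1 of the libraries compared. A fit of the 6 libraries alone called 0 genes (4438 had an unadjusted p under 0.05), and the same fit with the letters as a replicate block called 3614. Scaled by library totals in place of TMM factors, the median log2 fold change of all genes moved by -0.17 and 34.1% of 5159 calls were rises, against 50.2% of the calls above. Directions below are therefore relative to the typical gene under TMM scaling, whose median log2 fold change was -0.098.

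**Figure D2:**
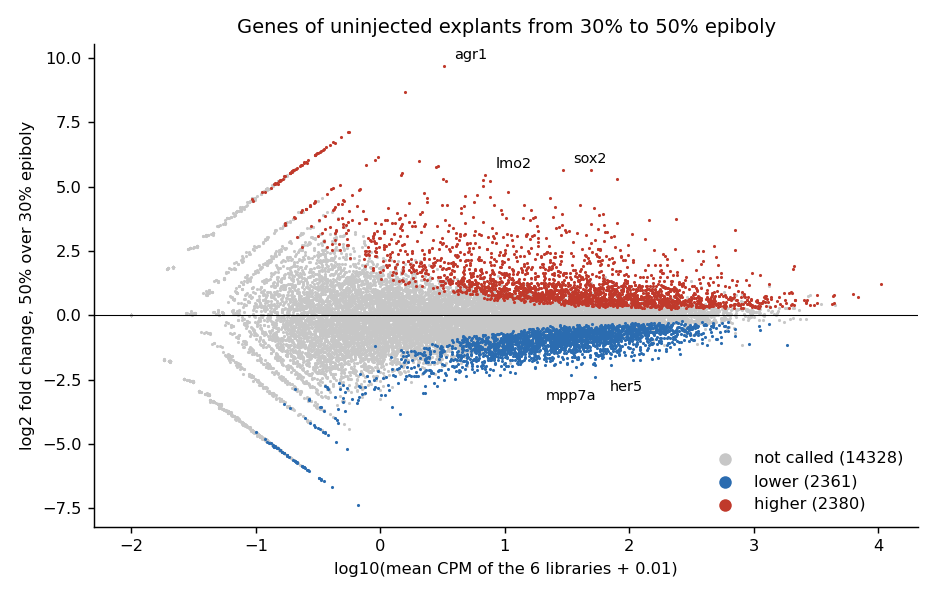
Log2 fold change from 30% to 50% epiboly (vertical axis) against the log10 of the mean CPM of the 6 libraries plus 0.01 (horizontal axis) for the 19069 genes tested, with 2380 rises in red, 2361 falls in blue and the 14328 other genes in grey. Rises reached larger folds than falls at well counted levels, with sox2 at 5.64 and her5 at -2.39, and the oblique streaks at the left are genes of few counts.

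The genes with the largest rises included the SoxB1 factor sox2, the Delta ligand dlc, the homeobox gene eve1, the hairy-related repressor her1 and lmo2, a cofactor known from blood and vessel development. The 12 largest rises were taken from protein-coding genes that averaged 5 CPM or more at 50% epiboly and no overlap between the stages, of which 1483 were eligible. sox2 (ENSDARG00000070913) held 2.37, 0.571 and 0.541 CPM in replicates A, B and C at 30% epiboly and 147, 18.3 and 6.78 CPM at 50% epiboly. It was low in every 30% library and spread widely at 50%, with A far above B and C. Its log2 fold change was 5.64 (SE 0.84 and edgeR adjusted p 3.88e-06), and 3.44 without replicate A at 50% epiboly (adjusted p 0.00126). At shield it reached 231 ± 51.7 CPM (SD, n = 3). dlc (ENSDARG00000002336) went from 0.831, 0 and 0.344 CPM to 35.8, 5.13 and 3.89 CPM, a log2 fold change of 5.22 (SE 1.04 and edgeR adjusted p 0.000184) that was 3.48 without replicate A at 50% epiboly. lmo2 (ENSDARG00000095019) went from 0.831, 0.063 and 0.049 CPM to 26.2, 5.62 and 8.78 CPM, which was 5.43 on the log2 scale (SE 0.88 and edgeR adjusted p 1.12e-05) and 4.52 without that library. For both genes the lowest 50% library lay above the highest 30% library, as the rule of choice required.

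agr1 (ENSDARG00000060682), an anterior gradient gene of the protein disulfide isomerase family and a member of the enveloping layer list, had 0 counts in all 3 libraries at 30% epiboly and 16.5, 1.69 and 1.12 CPM at 50% epiboly. Set against a floor of 3 counts per library, its mean was at least 33.7-fold higher at 50% epiboly, with most of that mean coming from replicate A. It went on to 31.4 ± 7.39 CPM at shield and 211 ± 3.01 CPM at the 2-somite stage. eve1 (ENSDARG00000056012), known from the ventral and posterior margin, held 1.19, 0 and 0 CPM at 30% and 27.8, 7.87 and 2.95 CPM at 50% epiboly, a log2 fold change of 5.04 (SE 1.13 and edgeR adjusted p 0.00103). Unlike agr1, eve1 had returned to 0.659 ± 0.599 CPM by the 2-somite stage. her1 (ENSDARG00000014722), a repressor of the segmentation clock, held 0.712, 0.254 and 0.394 CPM and then 30.1, 3.23 and 1.36 CPM (4.66, SE 1.04 and edgeR adjusted p 0.000732). Of these 12 rises it was the single gene whose call was lost without replicate A at 50% epiboly (2.30, adjusted p 0.167). The others were ttc22, btr30 of the bloodthirsty-related family, the urate oxidase gene uox, the fatty acid transporter gene slc27a4, rbbp8l and the actin-severing scinderin gene scinlb, with log2 fold changes from 4.59 (scinlb) to 5.81 (ttc22). Replicate A held the highest value of the 6 libraries for each of the 12 genes.

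Among the largest falls were her5, a hairy-related repressor, the polarity scaffold gene mpp7a and ror1, a receptor tyrosine kinase-like gene of noncanonical Wnt signalling. They were chosen by the same rule with 30% epiboly as the higher group, where 1707 genes were eligible, and their folds were smaller than those of the rises. her5 (ENSDARG00000008796) held 48.2, 99.5 and 120 CPM at 30% epiboly and 2.34, 16.9 and 31.9 CPM at 50% epiboly. By the rule of choice, all 3 libraries of the later stage lay below all 3 of the earlier one. Replicate A was the lowest at both stages. The log2 fold change was -2.39 (SE 0.54 and edgeR adjusted p 0.000879), and -1.87 without replicate A at 50% epiboly. It had been at 88.8 ± 33.4 CPM at sphere and was at 1.32 ± 0.492 CPM at shield. mpp7a (ENSDARG00000102470) held 37.4, 48.4 and 83.2 CPM and then 4.74, 11.2 and 18.3 CPM, a log2 fold change of -2.31 (SE 0.31 and edgeR adjusted p 4.34e-07). ror1 (ENSDARG00000015176) held 12.1, 16.9 and 30.1 CPM and then 2.79, 5.41 and 4.54 CPM (-2.22, SE 0.40 and edgeR adjusted p 3.78e-05). For both genes, no overlap between the stages was part of the rule of choice.

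The remaining large falls were alpk2, arhgef28a, fhdc2, slc2a15b, zmiz1a, serhl, osbpl3a, tnk2b and nrg2a, with log2 fold changes from -2.46 (alpk2) to -2.19 (nrg2a). Without replicate A at 50% epiboly the calls of serhl (adjusted p 0.0748) and of the neuregulin gene nrg2a (adjusted p 0.144) were lost, and nrg2a was lost in 1 further such fit. For serhl and nrg2a that library held a single count, 0.0558 CPM. Some of these falls did not last. zmiz1a, a zinc finger coregulator gene, went from 34.5 ± 12.9 CPM at sphere to 3.04 ± 2.00 CPM at shield and stood at 62.9 ± 2.31 CPM at the 2-somite stage. osbpl3a, of the oxysterol-binding protein family, went from 27.8 ± 4.51 to 1.83 ± 0.848 and then 20.9 ± 2.98 CPM at the same stages.

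**Figure D3:**
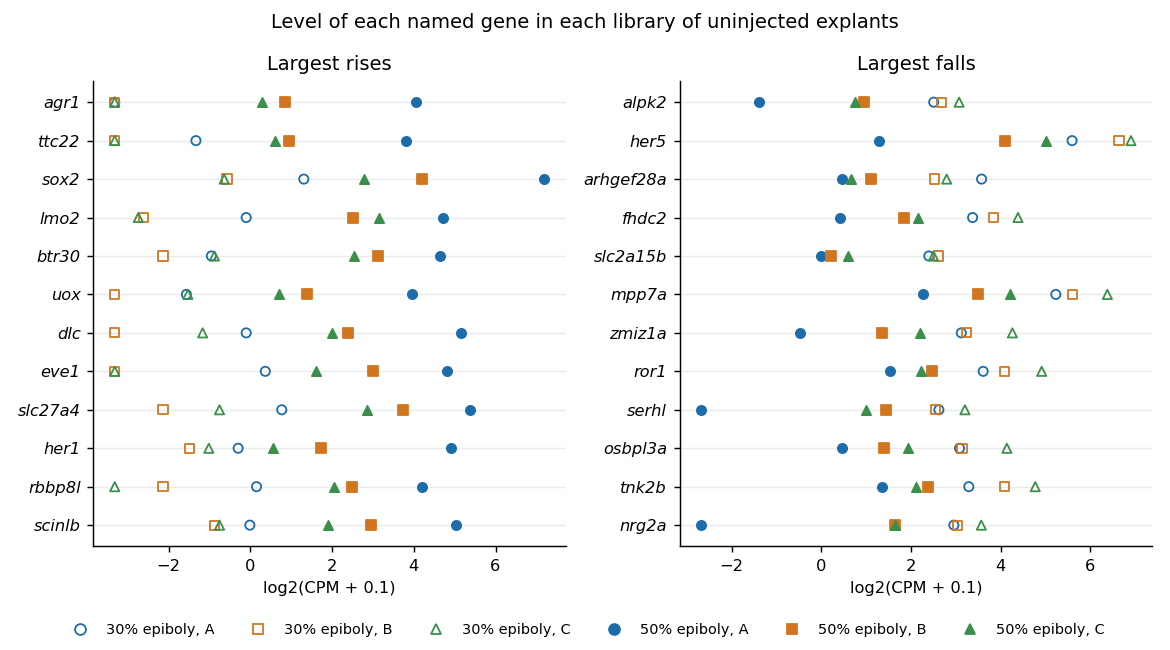
Level of the 12 largest rises (left) and the 12 largest falls (right) in each library, on a log2(CPM + 0.1) axis, with open symbols for 30% epiboly, filled symbols for 50% epiboly, and shapes for replicates A, B and C. The genes were chosen for no overlap between the stages. Filled blue circles (replicate A at 50% epiboly) sit farthest to the right in every rise, and agr1 lies at 0 counts in all 3 open symbols.

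Genes were next grouped by role, in lists drawn from general knowledge of the early embryo. Across the lists the largest median rise was that of the enveloping layer, at 1.90 on the log2 scale, and the largest median fall that of maternal transcripts, at -0.72. The counts of each list below stand against 12.5% of all 19069 genes that rose and 12.4% that fell. The lists share members, so the same gene can count in more than 1 of them. Fits with fewer calls over all genes have other backgrounds: 6.68% rose and 5.63% fell without replicate A at 50% epiboly, 7.43% and 6.15% without replicate C at 30% epiboly, and 8.50% and 6.94% without both libraries lettered A. With library totals in place of TMM scaling 9.22% rose and 17.8% fell, around a median of all genes of -0.27. Several listed genes could not be read. Of the listed identifiers, 62 did not pass the filter on low counts and 25 of those had no count in any of the 63 libraries, injected ones included, among them gsc, ndr1, mxtx2 and smad1. Since smad1 is a signal transducer in wide use and gsc a standard Nodal target, a listing at 0 was not taken as absence.

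**Figure D4:**
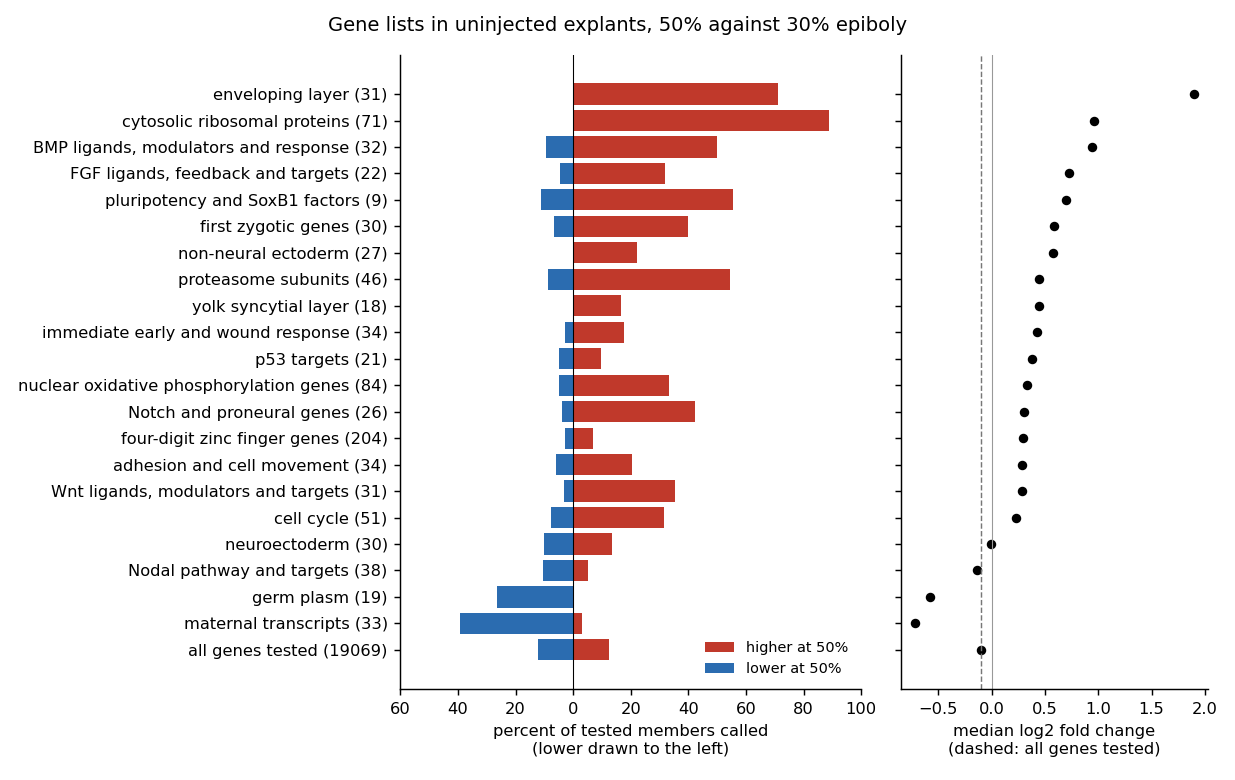
For each gene list, with the number of members tested in parentheses, the percent of tested members called higher (red, to the right) or lower (blue, drawn to the left) at 50% epiboly, and at the right the median log2 fold change, with the median of all genes dashed at -0.098. Enveloping layer (median 1.90) and cytosolic ribosomal protein genes (median 0.96) stand highest, and germ plasm (-0.58) and maternal transcripts (-0.72) lowest.

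Most enveloping layer genes tested were called as rises. Of 31 tested members, 22 rose and none fell, with a median log2 fold change of 1.90, where 12.5% of all genes rose. In bulk RNA, more cells of a type and more RNA per cell cannot be told apart. The summed level of the list was 8074, 5189 and 3601 CPM in replicates A, B and C at 30% epiboly and 21229, 13153 and 10972 CPM at 50% epiboly. Both stages kept the order A, B, C, and the groups did not overlap. Of the keratin genes, krt92 went from 374, 181 and 64.7 CPM to 2055, 891 and 657 CPM, a log2 fold change of 2.54 (SE 0.60 and edgeR adjusted p 0.00137). krt4, the usual marker of the layer, held 1474, 839 and 383 CPM and then 5275, 2898 and 1866 CPM (1.90, SE 0.64 and edgeR adjusted p 0.0245). The stages did not overlap, but the krt4 call was lost without replicate A at 50% epiboly (adjusted p 0.188), B at 30% (0.0761) or C at 30% (0.157). The type I keratin genes cyt1 (76.9, 16.8 and 4.77 CPM to 833, 286 and 200 CPM) and krt17 (13.6, 1.78 and 0.984 CPM to 210, 42.9 and 41.4 CPM) had log2 fold changes of 3.75 and 4.18, and were called in every such fit.

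Other members of the list included genes of junctions and annexins, some called and some not. Periplakin, ppl, linking keratins to junctions, went from 330, 117 and 61.9 CPM to 1106, 730 and 635 CPM (2.28, SE 0.30 and edgeR adjusted p 5.42e-07). The claudin gene cldnf held 27.4, 16.5 and 9.84 CPM and then 90.3, 68.3 and 62.3 CPM (2.04, SE 0.31 and edgeR adjusted p 3.40e-06), with little spread at the later stage. anxa1c, an annexin gene with 0 CPM in all sphere libraries, held 5.46, 0.381 and 0 CPM at 30% epiboly and 80.6, 30.9 and 21.3 CPM at 50% epiboly (4.54, SE 0.65 and edgeR adjusted p 3.40e-06). Among the members not called were cdh1, cldnb, f11r.1, grhl1, grhl3, icn2, pycard and spint2. Of the defining markers, krt18a.1 had at most 1 count in these 6 libraries, and krt5 and cldne are not reported singly here. Without replicate A at 50% epiboly 16 members of the list rose (6.68% of all genes), without replicate C at 30% epiboly 14 did (7.43%), and with library totals 19 did (9.22%).

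BMP pathway genes were called on both sides, with rises in the majority. Of 32 tested, 16 rose and 3 fell (median 0.94), against 12.5% and 12.4% of all genes. Of the ligands, bmp4 went from 10.4, 2.92 and 0.689 CPM to 105, 24.8 and 20.9 CPM, a log2 fold change of 3.44 (SE 0.54 and edgeR adjusted p 7.56e-06). Every 50% library of bmp4 lay above every 30% library, and the log2 fold change was 2.31 without replicate A at 50% epiboly (adjusted p 0.0015). bmp7a, which pairs with Bmp2b in the active ligand, held 225, 168 and 142 CPM and then 461, 234 and 202 CPM, overlapped between the stages and was not called (0.75, SE 0.54 and edgeR adjusted p 0.341). bmp2b had no count in these libraries. In the whole series only 2 libraries counted it, with a largest count of 1, so bmp2b could not be read. Its lack of counts was not taken as absence.

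Of further extracellular BMP genes examined singly, szl was called higher and admp lower, and both calls depended on single libraries. Other extracellular modulators of the list are not reported singly here. Sizzled, szl, a ventral inhibitor of the Chordin protease, held 20.5, 9.32 and 7.04 CPM and then 320, 60.6 and 58.5 CPM (3.58, SE 0.92 and edgeR adjusted p 0.00313). Its call was lost without replicate A at 50% epiboly (2.28, adjusted p 0.0951). The antidorsalizing ligand admp held 15.3, 23.2 and 16.7 CPM and then 0.502, 7.38 and 10.49 CPM (-1.59, SE 0.59 and edgeR adjusted p 0.0416), a call lost in 4 of the 6 fits that left out a library, with adjusted p up to 0.263. Chordin, chrd, the dorsal BMP antagonist, stood at 10.6, 12.3 and 9.84 CPM and then 2.23, 4.29 and 5.13 CPM without passing the test (-1.49, SE 0.63 and edgeR adjusted p 0.0792). The groups of admp and of chrd did not overlap.

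Several response and feedback genes of the pathway were among the rises. The decoy receptor gene bambia held 241, 142 and 89.8 CPM and then 784, 480 and 331 CPM (1.76, SE 0.40 and edgeR adjusted p 0.000837), with the stages apart. The ventral homeobox genes ved, vent and vox rose by 1.96, 1.72 and 0.98 on the log2 scale (edgeR adjusted p 0.00192, 0.00472 and 0.00863). Without replicate A at 50% epiboly ved was not called (adjusted p 0.0875), and without replicate C at 30% epiboly vent (0.0639) and vox (0.131) were not. For vent the 50% libraries were close together, at 126, 133 and 125 CPM, after 71.3, 34.7 and 10.4 CPM at 30% epiboly. Other calls of the list rested on replicate A at 50% epiboly. smad9 held 0.95, 0.951 and 1.33 CPM and then 28.0, 2.11 and 1.47 CPM, and its log2 fold change of 3.28 (edgeR adjusted p 0.00071) was 0.70 without that library (adjusted p 0.601). gata2a, a GATA factor of ventral ectoderm, held 127, 108 and 111 CPM and then 764, 183 and 165 CPM, with 1.68 (edgeR adjusted p 0.00755) and 0.59 without that library (adjusted p 0.474). id2a overlapped between the stages and went from 1.41 to 0.45 (adjusted p 0.501). For the whole BMP list, rises numbered 5 of 32 without replicate A at 50% epiboly, where 6.68% of all genes rose, and 9 without both libraries lettered A, where 8.50% did.

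Of 27 non-neural ectoderm factors tested, 6 rose (cdx4, gata2a, klf6a, msx3, tfap2c and ved) and none fell, with a median of 0.58, against 12.5% and 12.4% of all genes. Without replicate A at 50% epiboly 2 rose, against 6.68% of all genes. Of the rises, gata2a, msx3 and ved are also in the BMP list, and cdx4 is also in the Wnt list. The gene klf6a is also in the immediate early and wound response list, so the counts of these lists are not separate. klf6a, a Krüppel-like factor, held 36.1, 24.6 and 18.4 CPM and then 80.0, 67.7 and 62.2 CPM (1.41, SE 0.23 and edgeR adjusted p 7.94e-06), well separated in every library. tfap2c, an AP-2 factor of the epidermis, held 145, 64.8 and 35.7 CPM and then 445, 235 and 159 CPM (1.77, SE 0.50 and edgeR adjusted p 0.00662), and lost its call without replicate A at 50% epiboly (adjusted p 0.114) or C at 30% (0.0775). The epidermal factor gene tp63 was at 1.07, 1.14 and 0.787 CPM and then at 4.57, 1.97 and 3.42 CPM, not called (1.76, SE 0.83 and edgeR adjusted p 0.118). foxi1, also a defining marker of the list, was tested and not called.

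Neural genes were called about as often as all genes. Of 30 tested, 4 rose (sox2, sox3, sox19a and tcf7l1a) and 3 fell (her5, otx1 and nrp1a), which is 13.3% and 10% against 12.5% and 12.4%, and the median of -0.0029 turned to 0.0077 without replicate A at 50% epiboly. otx1, an anterior head factor, held 32.3, 47.3 and 81.5 CPM and then 5.24, 12.7 and 28.6 CPM (-1.79, SE 0.45 and edgeR adjusted p 0.0023), a call lost without replicate C at 30% epiboly (adjusted p 0.0505). The forebrain marker otx2b stayed between 0.589 and 3.74 CPM in the 6 libraries and was not called.

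Pluripotency and SoxB1 factors did not move as a block. Of 9 tested, 5 rose and 1 fell (median 0.70), against 12.5% and 12.4% of all genes. Without replicate A at 50% epiboly 3 rose and 0 fell, where 6.68% and 5.63% of all genes did. nanog, a homeodomain activator of the first zygotic genes, held 2149, 2830 and 2728 CPM at 30% epiboly and 460, 1347 and 1658 CPM at 50% epiboly. The stages did not overlap, and replicate A at 50% epiboly was already near the shield mean of 347 CPM. The log2 fold change was -1.15 (SE 0.30 and edgeR adjusted p 0.00354), and -0.77 without that library (adjusted p 0.0755). pou5f3, its partner of the Oct4 family, held 3352, 3262 and 2344 CPM and then 4124, 4218 and 3697 CPM, and was not called (0.43, SE 0.32 and edgeR adjusted p 0.364). sox19b, the maternal SoxB1 gene, was at 95.2, 100 and 173 CPM and then at 90.9, 63.4 and 84.2 CPM, lower in every library of the later stage but not called (-0.63, SE 0.25 and edgeR adjusted p 0.0643). The zygotic SoxB1 genes were on the other side: sox3 held 374, 225 and 212 CPM and then 969, 751 and 526 CPM (1.47, SE 0.52 and edgeR adjusted p 0.0327), and sox19a had a log2 fold change of 0.93 (SE 0.30 and edgeR adjusted p 0.016). Both calls were lost without replicate A at 50% epiboly (adjusted p 0.16 and 0.11) or C at 30% (0.143 and 0.114), and that of sox3 also without either B. klf4 went from 2.26, 0.254 and 0.492 CPM to 27.4, 4.78 and 4.83 CPM (3.63, SE 0.59 and edgeR adjusted p 9.94e-06) and klf17 rose by 0.70 (SE 0.17 and edgeR adjusted p 0.00134). Both are Krüppel-like factors, and both were called whichever library was left out. All of the rises of this list count in other lists too. The gene klf17 is also in the enveloping layer list and klf4 in the immediate early and wound response list. The genes sox2, sox3 and sox19a are also in the neural list.

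Falls outnumbered rises among maternal transcripts. Of 33 tested, 13 fell and 1 rose (median -0.72), against 12.4% of all genes that fell, and 18 fell with the letters as a block, a model that called 27.1% of all genes, 13.2% higher and 13.9% lower. cth1, a zinc finger gene of the tristetraprolin family, held 283, 336 and 523 CPM and then 64.9, 132 and 201 CPM, a log2 fold change of -1.52 (SE 0.32 and edgeR adjusted p 0.000348). kpna7, an importin alpha gene of the oocyte, held 32.6, 49.5 and 62.3 CPM and then 7.64, 19.6 and 18.03 CPM (-1.68, SE 0.36 and edgeR adjusted p 0.000407). slbp2, an oocyte histone mRNA binding protein gene, held 19.1, 20.4 and 25.9 CPM and then 2.06, 7.87 and 9.72 CPM (-1.74, SE 0.40 and edgeR adjusted p 0.000791). For all 3 genes the stages were apart, and A was the lowest library of each stage. The exception among the calls was ybx1, a translational repressor gene, which went from 1663, 1401 and 1005 CPM to 3203, 2477 and 1790 CPM (0.88, SE 0.21 and edgeR adjusted p 0.0014). Falls numbered 5 without replicate A at 50% epiboly, where 5.63% of all genes fell, and 5 without replicate C at 30% epiboly, where 6.15% did. The list of first zygotic genes had 12 rises and 2 falls of 30 tested (median 0.59), against 12.5% and 12.4% of all genes. Without replicate A at 50% epiboly it had 6 rises and 2 falls, where 6.68% and 5.63% of all genes were called. Members such as ved and klf17 are shared with other lists.

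Germ plasm transcripts, which mark primordial germ cells, had 5 falls and no rise among 19 tested (median -0.58), against 12.4% and 12.5% of all genes. There were 0 falls without replicate A at 50% epiboly, where 5.63% of all genes fell. buc, the organizer of germ plasm, held 55.1, 74.4 and 132 CPM and then 9.93, 31.6 and 51.5 CPM (-1.49, SE 0.43 and edgeR adjusted p 0.00819), which was not called without that library (adjusted p 0.112) or without C at 30% epiboly (0.127). ddx4 (vasa) stayed at 155 to 216 CPM throughout, and dnd1 and nanos3 were not called. The germ plasm list and the maternal list share members such as buc and h1m.

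Few Nodal pathway and mesendoderm genes were called, 2 higher and 4 lower of 38 tested (median -0.14), against 12.5% and 12.4% of all genes. Of the markers of mesendoderm, mixl1 was at most 1.33 CPM, sox32 at most 0.353 CPM, and sox17 had 0 counts in all 3 libraries at 50% epiboly. The mesoderm marker tbxta had 0.698 to 5.35 CPM and noto, a notochord factor, 10.1 to 28.3 CPM, and neither was called. Of the pathway itself, the T-box gene eomesa, a maternal partner of Nodal Smads, held 26.5, 38.9 and 56.3 CPM and then 10.1, 18.8 and 22.7 CPM (-1.24, SE 0.36 and edgeR adjusted p 0.00852), with the call lost without replicate A at 50% epiboly (adjusted p 0.108) or C at 30% (0.115). The receptor gene acvr2ba held 144, 146 and 152 CPM and then 95.4, 101 and 99.9 CPM, a log2 fold change of -0.58 (SE 0.15 and edgeR adjusted p 0.00308) seen alike in every letter. smad2 fell by 0.64 on the log2 scale (edgeR adjusted p 0.00133; 0.0809 without replicate C at 30%).

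Among Fgf genes, 7 of 22 tested rose and 1 fell (median 0.73), against 12.5% and 12.4% of all genes. fgfr1b, a receptor gene, held 108, 72.4 and 58.5 CPM and then 248, 157 and 121 CPM (1.14, SE 0.23 and edgeR adjusted p 0.000217). The feedback inhibitor gene spred1 rose by 1.80 on the log2 scale (SE 0.47 and edgeR adjusted p 0.00287), while the ligand gene fgf17 held 10.1, 11.2 and 9.59 CPM and then 1.45, 2.25 and 4.18 CPM (-1.96, SE 0.58 and edgeR adjusted p 0.00941; 0.0905 without replicate A at 50% epiboly). Rises in this list numbered 2 without replicate C at 30% epiboly, against 7.43% of all genes, and 4 without replicate A at 50% epiboly, against 6.68%.

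Of 31 Wnt genes tested, 11 rose and 1 fell (median 0.28), where 12.5% and 12.4% of all genes did. The zinc finger target gene sp5l held 10.6, 7.80 and 3.39 CPM and then 178, 88.9 and 56.7 CPM, a log2 fold change of 3.90 (SE 0.80 and edgeR adjusted p 0.000255), each later library lying far above each earlier one. The planar polarity cadherin gene celsr1a held 53.9, 13.1 and 9.74 CPM and then 272, 119 and 114 CPM (2.72, SE 0.44 and edgeR adjusted p 1.22e-05). ctnnb1, for beta-catenin, rose by 0.86 (SE 0.14 and edgeR adjusted p 4.94e-06) and the glypican gene gpc4 by 0.74 (SE 0.14 and edgeR adjusted p 4.96e-05). These 4 calls were made whichever library was left out. The noncanonical ligand gene wnt5b was counted almost only in replicate A at 50% epiboly, at 9.15 CPM against 0.0984 to 0.351 CPM in the other libraries, and its log2 fold change of 4.37 was 0.73 without that library (adjusted p 0.728). Without replicate A at 50% epiboly 4 genes of the list rose (6.68% of all genes), and 8 did with library totals (9.22%).

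Notch genes had 11 rises and 1 fall among 26 tested (median 0.30), beside 12.5% and 12.4% of all genes. Besides dlc and her1, the clock gene her7 held 2.08, 0.888 and 1.13 CPM and then 60.4, 15.11 and 5.48 CPM (4.30, SE 0.96 and edgeR adjusted p 0.000701). The ubiquitin ligase gene mib1, which acts in Delta-bearing cells, held 110, 81.3 and 68.9 CPM and then 288, 157 and 129 CPM (1.14, SE 0.18 and edgeR adjusted p 3.40e-06). Both were called whichever library was left out. The Delta gene dla had 11.99 CPM in replicate A at 50% epiboly and at most 0.884 CPM in any other library, and was not called without it (adjusted p 0.258). notch2 fell, with 36.4, 48.2 and 53.2 CPM and then 11.1, 24.2 and 29.9 CPM (-1.08, SE 0.31 and edgeR adjusted p 0.00802), a call lost without replicate A at 50% epiboly (adjusted p 0.133) or C at 30% (0.0583). In all, 4 Notch genes rose without replicate A at 50% epiboly, a fit in which 6.68% of all genes did.

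Cytosolic ribosomal protein genes were the list with the highest share of calls. Of 71 tested, 63 rose and none fell, with a median log2 fold change of 0.96, against 12.5% of all genes that rose, and all 71 lay above the median of all genes. The summed level was 8020, 6765 and 5352 CPM at 30% epiboly and 16793, 11916 and 9534 CPM at 50% epiboly. rplp0, of the ribosomal stalk, held 297, 215 and 142 CPM and then 815, 410 and 345 CPM (1.26, SE 0.21 and edgeR adjusted p 9.78e-06). rpl4 held 369, 343 and 267 CPM and then 726, 602 and 479 CPM (0.89, SE 0.13 and edgeR adjusted p 9.26e-07). The rise was present in each letter for both genes. Rises numbered 51 without replicate A at 50% epiboly (6.68% of all genes), 54 without replicate C at 30% (7.43%) and 60 with library totals (9.22%), where the median was 0.78. Ribosomal protein genes can have near-identical copies or host small RNAs, and how the counting treated shared reads is not stated, so single members are uncertain.

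Other housekeeping lists had smaller medians. Of 46 proteasome genes tested, 25 rose and 4 fell (median 0.45), against 12.5% and 12.4% of all genes. The core subunit gene psmb6 had the largest rise among those called, from a mean of 11.1 to 40.7 CPM (1.88, edgeR adjusted p 1.55e-06). The proteasome activator gene psme4b was among the falls, from 160 to 89.5 CPM (-0.84, edgeR adjusted p 0.000142). Nuclear genes of oxidative phosphorylation had 28 rises and 4 falls of 84 tested (median 0.33), beside the same shares of all genes, with 17 rises without replicate A at 50% epiboly, where 6.68% of all genes rose. The 204 four-digit zinc finger genes tested had 14 rises and 6 falls (median 0.30), which is 6.86% and 2.94% of them. With library totals they had 5 rises and 11 falls, where 9.22% and 17.8% of all genes were called, and their median stood 0.39 above that of all genes under both scalings.

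Cell cycle genes had 16 rises and 4 falls of 51 tested (median 0.23), against 12.5% and 12.4% of all genes, and 7 falls with the letters as a block, where 13.9% of all genes fell. With library totals there were 8 rises and 10 falls, where 9.22% and 17.8% of all genes were called, and the list's median stood 0.35 above that of all genes, against 0.33 with TMM scaling. The Cdk inhibitor gene cdkn1ba held 7.24, 3.93 and 1.57 CPM and then 28.5, 15.5 and 16.5 CPM (2.26, SE 0.33 and edgeR adjusted p 1.87e-06), with no overlap. The sliding clamp gene pcna rose by 0.75 (SE 0.15 and edgeR adjusted p 0.000221) and the replication helicase gene mcm7 by 0.72 (SE 0.15 and edgeR adjusted p 0.000181). In the other direction, the mitotic cyclin gene ccnb2 held 371, 465 and 578 CPM and then 237, 291 and 329 CPM (-0.72, SE 0.15 and edgeR adjusted p 0.000296). The inhibitory Cdk kinase gene pkmyt1 held 10.2, 5.71 and 16.4 CPM and then 1.67, 3.65 and 5.42 CPM (-1.59, SE 0.33 and edgeR adjusted p 0.000194). Each of these 5 calls was made whichever library was left out. Rises in the list numbered 4 without replicate A at 50% epiboly, where 6.68% of all genes rose, and 8 without replicate C at 30%, where 7.43% did.

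Genes of adhesion and matrix had 7 rises and 2 falls of 34 tested (median 0.28), with 12.5% and 12.4% over all genes. The laminin beta gene lamb1a held 19.999, 7.17 and 3.20 CPM and then 225, 47.5 and 32.3 CPM, a log2 fold change of 3.34 (SE 0.51 and edgeR adjusted p 4.81e-06). It had been at 0.631 ± 0.538 CPM at sphere and reached 298 ± 102 CPM at shield. The laminin alpha gene lama5 rose by 2.86 (SE 0.60 and edgeR adjusted p 0.000301). Fibronectin, cadherin and snail genes of the list were not called.

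Markers of cells that the explants could also hold, and of handling, were measured in the same libraries. Yolk syncytial layer genes had 3 rises and no fall of 18 tested (median 0.45), against 12.5% and 12.4% of all genes. Their defining factor mxtx1 stayed between 0.178 and 1.08 CPM, and hnf4a had at most 2 counts. mxtx2 had no count in any library of the series and could not be read. The lipoprotein gene apoeb, which the epidermis is also known to express, held 602, 490 and 326 CPM and then 2247, 1162 and 980 CPM (1.63, SE 0.34 and edgeR adjusted p 0.000301). Immediate early and wound response genes had 6 rises and 1 fall of 34 tested (median 0.43), with the same shares of all genes beside them. The summed level of that list was 1970, 1738 and 1326 CPM at 30% and 2380, 2531 and 2323 CPM at 50% epiboly. p53 targets had 2 rises and 1 fall of 21 tested, which is 9.52% and 4.76% beside the same shares, and none of either direction without replicate A at 50% epiboly, where 6.68% of all genes rose and 5.63% fell. The part of these genes in the other changes was not tested.

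The changes were then looked up in contrasts between other libraries. All contrasts share 1 fit and its estimate of spread per gene, so their calls are not independent. From sphere to shield in uninjected explants, 5790 of the 19069 genes rose (30.4%) and 5758 fell (30.2%) by the same edgeR test. Of the 2380 rises between 30% and 50% epiboly, 2317 (97.4%) also rose from sphere to shield and 0 fell, and of the 2361 falls, 2249 (95.3%) also fell and 12 rose. The interval lies within the wider one. Among the 12, mxd4 and slc25a36b met the level and overlap conditions used for named genes. mxd4, a Max-binding repressor gene, held 9.79, 13.7 and 13.1 CPM at 30% and 5.58, 7.45 and 6.19 CPM at 50% epiboly (-0.93, SE 0.31 and edgeR adjusted p 0.0232). Its stage means ran from 5.03 CPM at sphere through 12.2 and 6.40 to 8.23 CPM at shield. These genes were singled out after their values were seen.

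The same 2 stages were compared in the injected explants, which come from separate libraries of the same fit. In ndr2 explants 2207 genes rose (11.6%) and 1978 fell (10.4%), and in CA-acvr1b* explants 3221 rose (16.9%) and 2842 fell (14.9%). Of the 2380 rises in uninjected explants, 1612 (67.7%) were called higher in ndr2 explants and 2037 (85.6%) in CA-acvr1b* explants, which made 73.0% and 63.2% of the rises there. Of the 2361 falls, 1436 (60.8%) and 1894 (80.2%) were called lower. bmp4 had log2 fold changes of 3.44 in uninjected, 3.21 in ndr2 and 2.19 in CA-acvr1b* explants, krt17 of 4.18, 4.52 and 5.33, and nanog of -1.15, -0.86 and -1.38. All 9 of these values were called. Over the 10277 genes that averaged 5 CPM or more at either stage of uninjected explants, Pearson's r of the log2 fold changes was 0.914 with ndr2 and 0.935 with CA-acvr1b* explants. These r values are across genes, which are not independent replicates, and they fell to 0.460 and 0.499 over all 19069 genes.

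**Figure D5:**
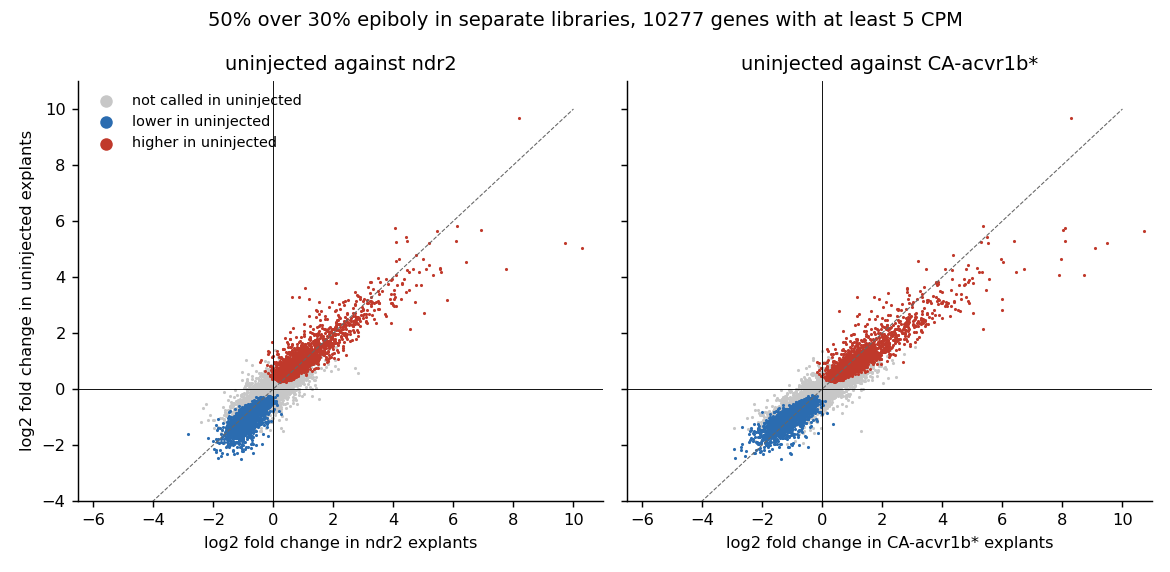
Log2 fold change from 30% to 50% epiboly in uninjected explants (vertical axis) against that in ndr2 explants (left) and CA-acvr1b* explants (right) for the 10277 genes at 5 CPM or more, with genes called higher in uninjected explants in red and lower in blue. Points follow the dashed line of equal change, with Pearson's r of 0.914 and 0.935 across genes.

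No gene's change between the 2 stages was called different between conditions. The test of the difference itself gave 0 genes (0%) for uninjected against ndr2 and 0 (0%) for uninjected against CA-acvr1b* by edgeR, with 808 (4.24%) and 914 (4.79%) at an unadjusted p under 0.05. DESeq2 called 1 and 7 genes. For gata2a the log2 fold change was 1.68 in uninjected and 0.45 in ndr2 explants, a difference of 1.23 (SE 0.67 and edgeR adjusted p 0.999947). With 3 libraries per group and that SE, a difference of that size was not called for gata2a. Its size rested largely on replicate A of the later stage in uninjected explants. Without that library the uninjected log2 fold change was 0.59, close to the 0.45 of ndr2 explants. So gata2a does not show that a real difference was missed. The smallest detectable difference was not estimated, and the absence of calls does not show that the conditions changed alike.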

How the data were processed

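RNA-seq of polyadenylated RNA from zebrafish explants was analysed from the deposited table of read counts per gene, which holds 1 column for each of 63 libraries and 32057 genes. The values are whole-number counts, unscaled by the authors as far as the values show. Reads were trimmed with Trim Galore, mapped with STAR and counted with featureCounts on danRer11 (GRCz11), per the submitters' processing notes. Versions, use of strand and the treatment of reads shared by several genes are not given in the sources used here, so overlapping genes and near-identical copies are uncertain. All columns were used, and no line lacked a gene name.

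The filterByExpr filter (at least 10 counts, total of at least 15, 21 groups) passed 19069 genes, which held 99.97% of the counts. All 63 libraries entered 1 edgeR 4.0.16 fit (R 4.3.3) with a mean per group, TMM scaling and the robust quasi-likelihood F-test. P-values were adjusted by Benjamini-Hochberg over all genes tested, and a gene was called under 0.05. CPM values carry the TMM factors, errors after ± are SDs over 3 libraries, and fold changes use a prior count of 0.125. Each SE is the size of the log2 fold change divided by the square root of its F statistic in the 63-library fit. It is unreliable for genes of few counts. A floor of 3 counts corresponded to 0.148 to 0.211 CPM in the 6 libraries, and covers counting error only. The code was tested on simulated counts.

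The labels call the letters biological replicates without naming their source, so p-values measure a spread between libraries. That spread was estimated from all 63 libraries of the fit, not from the 6 compared alone. Deviations from the stage means correlated at 0.232 (A), 0.157 (B) and 0.246 (C) between same-lettered libraries of 30% and 50% epiboly, and below 0 between different letters. Centring on the stage means ties these values together, so those below 0 are no separate support for pairs. The letters were read as pairs for gains and pair counts, and in an alternative fit with a replicate block. The main fit did not use them. Alternatives further covered DESeq2 1.42.0, other scaling and filtering, fewer libraries in the fit, and leaving out each library.

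Named genes are the 12 largest rises and falls among called protein-coding genes at 5 CPM or more in the higher of both groups, no overlap between the groups and a proper symbol, and members of the 22 gene lists. A 13-gene list of mitochondrially encoded genes had no gene past the filter. The rule's part for genes that differ from ndr2 explants found none. The comparison, its members and the lists were chosen with earlier results of these data known. Promoter sequences were not used here, and the motif search was not run.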

Additional observations from a re-analysis of the deposited data

How the results depend on the processing

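The 4741 calls between 30% and 50% epiboly (2318 of at least 2-fold) became 5167 with a replicate block on the paired letters over all 63 libraries, 4826 with DESeq2 size factors, 4262 without the filter on low counts, 5471 by DESeq2's Wald test and 5159 with library totals. In the fit of the 6 libraries alone they were 0 (0 of at least 2-fold), but 3614 with the replicate block. The 21 uninjected libraries gave 3087, and 3693 with the block. Leaving out 1 of the 6 libraries gave 2348 to 5319 calls and 937 to 3165 of at least 2-fold. Without both libraries lettered A they were 2945 and 1459. Library totals and the removal of both A libraries were chosen after seeing the data. In the 63-library fit the block changed the call of cebpb (adjusted p 0.0559) among the genes examined singly, and it kept 4666 of the 4741 calls. The difference between uninjected and ndr2 explants had 1 call by DESeq2 (smad6b), and 0 to 1 when libraries were left out (atxn3 without ndr2 replicate A at 50% epiboly). That between uninjected and CA-acvr1b* explants had 7 by DESeq2. The cause of these shifts was not tested. There were 3 libraries per stage, and the replicates differed in position along the developmental trend. Calls lost on leaving out 1 library included well counted genes that changed more than 2-fold, such as krt4 and nanog. Which changes could be resolved was not estimated.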
